A study of Mus musculus with 12 samples.

Results

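The integrated stress response was followed here through 32 genes, namely Atf4 itself, the transcription factors and regulators that act with it or after it, and genes that ATF4 is known to switch on. They were taken by symbol, and all 32 were found among the 55348 genes counted and were among the 19052 that passed the filter on low counts. The libraries, 3 for each of 4 genotypes, were made from organs of Corti, which hold the hair cells and supporting cells of hearing, at postnatal day 21. Wild-type mice were compared with Clrn1-/- mice, in which PGK-cre, active in the whole embryo, had removed 1 exon of Clrn1 in every tissue, with Clrn2-/- mice, which carry a constitutive nonsense allele of Clrn2, and with Clrn1-/-Clrn2-/- mice obtained by crossing both lines. Clrn1 and Clrn2 encode clarin-1 and clarin-2, membrane proteins of hair cells whose loss causes deafness. Wild-type mice were bred apart from the mutant lines, so that breeding and genotype cannot be told apart in any comparison with them. Clrn1-/- and Clrn2-/- mice also came from different lines, so line and genotype cannot be told apart between mutants either. The sources used here do not say how many animals gave each library, so p-values measure the spread between these libraries.

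In the integrated stress response, kinases that sense unfolded protein in the endoplasmic reticulum (PERK), missing amino acids (GCN2), double-stranded RNA (PKR) or heme and mitochondrial stress (HRI) phosphorylate the translation factor eIF2. Translation then slows in general, while the Atf4 mRNA, which has upstream open reading frames, is translated more. ATF4 pairs with other leucine zipper proteins, often of the C/EBP family, and switches on genes for amino acid uptake and synthesis, for redox balance and, when stress lasts, for cell death. The level of Atf4 mRNA is therefore not a measure of ATF4 protein, and neither protein nor eIF2 phosphorylation was measured in these libraries.

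Per library, 30008679 to 41049302 stranded counts were assigned to genes, and expression is given as CPM, the counts scaled to a common library size after TMM normalization. A count of 3 corresponded to 0.0759 to 0.0983 CPM, a limit that covers counting error only. In the libraries of the mutants without clarin-1, Clrn1 fell from 25.8 CPM in wild-type to 2.83 in Clrn1-/- and 2.30 in Clrn1-/-Clrn2-/- mice. Clrn2 fell from 2.72 CPM in wild-type to 0.916, 1.23 and 1.08 in Clrn1-/-, Clrn2-/- and Clrn1-/-Clrn2-/- mice, so its level does not tell the mutants apart. Hair cell markers were present in every library, with a summed level of 3709 to 4221 CPM in wild-type, 2889 to 3110 CPM in Clrn1-/- and 2577 to 2806 CPM in Clrn1-/-Clrn2-/- mice. The single markers did not all follow the sum: of the 14 tested in Clrn1-/-Clrn2-/- mice, 10 had a log2 fold change above 0, 3 rose and 2 fell, with a median of 0.15. In Clrn1-/- mice 6 of the 14 were above 0, 1 rose and 3 fell, with a median of -0.08. Markers of other cells, given at the end, also differed between genotypes. In such bulk samples, fewer cells of a type and less RNA per cell cannot be told apart.

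The 32 genes covered a wide range of levels in wild-type mice. Levels of different genes are compared here per kilobase of exon, for 31 genes, because 2 overlapping entries of the annotation carry the symbol Ddit3 and give it no single length. Ddit4, a brake on mTORC1, stood at the top with 75.2 ± 1.35 CPM per kb (SD, n = 3), and none of its libraries came down to those of the next gene. Slc3a2, the shared heavy chain of several amino acid exchangers, and Atf4 followed at 58.8 ± 1.55 and 57.9 ± 2.55 CPM per kb, and their libraries overlapped. Slc7a5, a light chain that pairs with Slc3a2 to import leucine, had 35.7 ± 2.34, and Asns, asparagine synthetase, 29.0 ± 1.73 CPM per kb. At the lower end were Gdf15 with 0.531 ± 0.0801, Stc2 with 0.390 ± 0.0536, Slc7a3 with 0.298 ± 0.0782 and Fgf21 with 0.236 ± 0.0725 CPM per kb, and the libraries of Slc7a3 overlapped with those of both its neighbours.

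**Figure D1:**
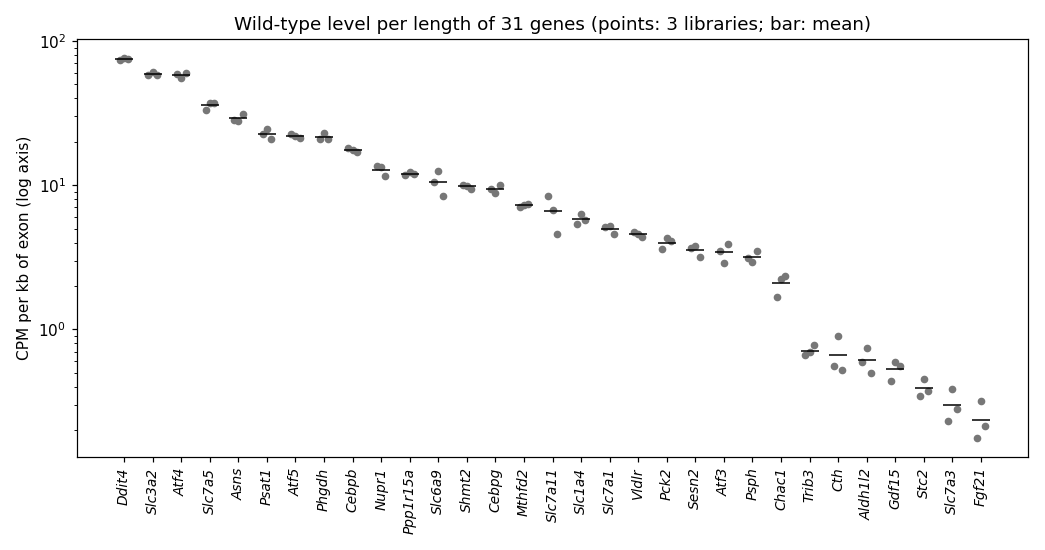
Level of 31 integrated stress response genes in wild-type organ of Corti, in CPM per kb of exon on a log axis, ordered by mean, with a point per library and a bar at the mean. Ddit4 is highest at 75.2 and Fgf21 lowest at 0.236 CPM per kb.

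ATF4 and a C/EBP partner bind a composite site, the C/EBP-ATF response element, whose core was searched here as TGATGNAA or its reverse complement TTNCATCA in the RefSeq promoters of build GRCm38.p6, from 250 bases before to 50 after each transcript start. No other motif was searched. A promoter was given for 28 of the 32 genes and was missing for Aldh1l2, Cth, Slc7a5 and Slc7a3. The core was present in 10 of these 28 genes (35.7%), namely Atf3, Nupr1, Trib3, Asns, Pck2, Chac1, Slc7a11, Slc1a4, Fgf21 and Vldlr, against 1219 of all 27025 genes with a promoter (4.51%). Of the 6 genes that rose in Clrn2-/- mice, as given next, 4 held it (Atf3, Chac1, Slc1a4 and Fgf21), against 6 of the other 22 with a promoter. A match of these letters is a description and no proof of a bound site. The stretch around the core is shown for those 4 genes, and for Slc7a11, which held it 2 times and was called in none of the comparisons, with the core in capitals. All 5 are written 5′ to 3′ on the strand of the gene, which is the plus strand for Chac1 and the minus strand for the other 4.
Fgf21, chr7:45615592-45615659: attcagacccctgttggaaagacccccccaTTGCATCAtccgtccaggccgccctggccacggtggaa
Chac1, chr2:119351019-119351086: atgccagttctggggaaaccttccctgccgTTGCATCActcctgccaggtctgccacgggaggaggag
Atf3, chr1:191183406-191183473: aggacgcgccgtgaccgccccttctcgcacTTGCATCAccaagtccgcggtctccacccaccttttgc
Slc1a4, chr11:20332710-20332747: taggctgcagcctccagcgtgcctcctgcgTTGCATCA
Slc7a11, chr3:50443623-50443690: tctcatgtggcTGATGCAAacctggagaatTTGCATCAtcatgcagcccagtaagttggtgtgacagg
The first base of the core lay at -139 from the transcript start in Fgf21, -193 in Chac1, -110 in Atf3 and -4 in Slc1a4, and at -66 and -47 in Slc7a11. The same letters, TTGCATCA, were found in all 5, and the upstream copy of Slc7a11 was in the opposite orientation.

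The first comparison asked what the loss of clarin-2 alone does to these genes. Calls needed a change of 1.5-fold or more together with an adjusted p up to 0.05 (edgeR's quasi-likelihood test, Benjamini-Hochberg over all genes tested), and 2.66% of all genes passed both in this comparison. In Clrn2-/- mice, 6 of the 32 genes rose (Fgf21, Chac1, Atf3, Gdf15, Mthfd2 and Slc1a4), where 1.24% of all genes tested did, and 1 fell (Cebpb), where 1.42% of all genes did. Libraries of Clrn2-/- mice lay wholly above those of wild-type for 21 of the 32 genes, against 14.6% of all genes, and wholly below for 1, against 14.4%. The median log2 fold change was 0.35 over the 32 genes and 0.00 over all genes, with 29 of the 32 above 0. Without the fold minimum, 18 genes were higher and 1 was lower, where 7.14% and 7.07% of all genes were.

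In Clrn1-/- mice the same test called 0 of the 32 genes in either direction, where 3.52% of all genes rose and 3.7% fell, 7.22% in all. limma-voom and DESeq2 called 0 as well. At an unadjusted p under 0.05, 13 genes were higher and 3 lower. The share of all genes at that p was not counted, here or for the lists below, so these counts have no background beside them. Without the fold minimum, 8 were higher at adjusted p (Phgdh, Mthfd2, Slc1a4, Psph, Slc7a1, Atf3, Chac1 and Pck2) and 3 were lower (Cebpb, Ddit3 and Slc6a9), where 13.6% and 13.3% of all genes were, and the largest of these differences were log2 0.48 for Atf3 and -0.39 for Cebpb. Libraries of Clrn1-/- mice lay wholly above wild-type for 13 genes and wholly below for 2, against 20.5% and 19.8% of all genes, and the median log2 fold change was 0.14.

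In Clrn1-/-Clrn2-/- mice 6 of the 32 genes rose (Atf3, Fgf21, Gdf15, Chac1, Vldlr and Stc2), where 5.88% of all genes did, and 0 fell, where 4.02% did, 9.9% in all. limma-voom and DESeq2 also called 0 as under-expressed, and 1 gene, Slc6a9, was lower at an unadjusted p under 0.05. Libraries lay wholly above wild-type for 21 genes and wholly below for 0, against 25% and 23.2% of all genes, and the median log2 fold change was 0.29, with 26 of the 32 above 0. Without the fold minimum, 17 were higher and 1 was lower, where 19.1% and 17.9% of all genes were. All 3 comparisons share the wild-type libraries, so the counts are not independent of each other.

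**Figure D2:**
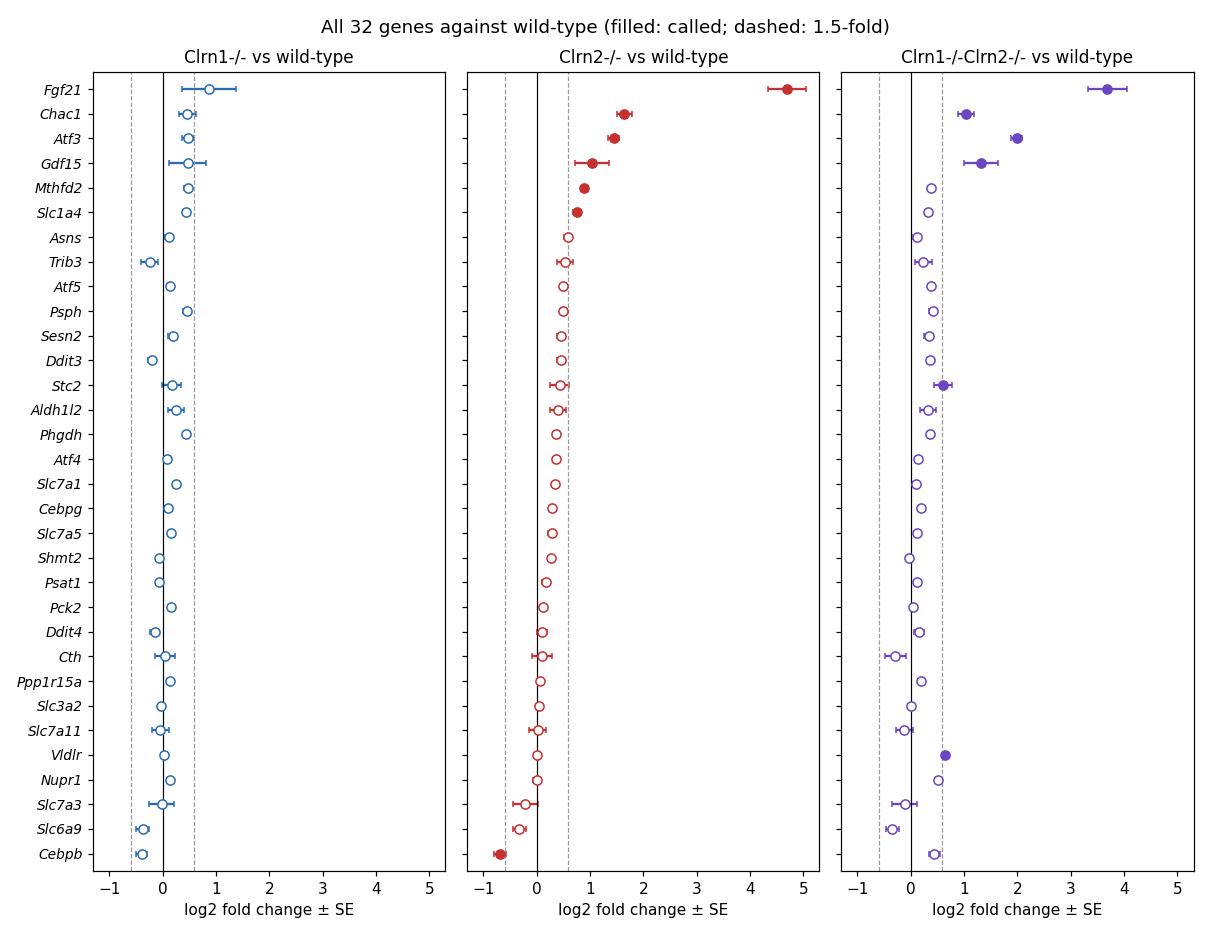
log2 fold change ± SE (x axis) of the 32 genes (y axis, ordered by their value in Clrn2-/- mice) in each mutant against wild-type, from the fit of 12 libraries. Filled points are called, and dashed lines mark a 1.5-fold change. Clrn1-/- has no filled point, while Clrn2-/- and Clrn1-/-Clrn2-/- share Fgf21, Chac1, Atf3 and Gdf15.

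Among the transcription factors and regulators, Atf4 (chr15:80255184-80257541, plus strand, Gencode M21 annotation of GRCm38, as for all genes below) moved little. Its level was 139, 130 and 141 CPM in the wild-type libraries, 141, 143 and 149 in Clrn1-/-, 183, 175 and 169 in Clrn2-/- and 143, 160 and 144 in Clrn1-/-Clrn2-/- mice. All Clrn2-/- libraries were above all others. Against wild-type the difference was 0.36 ± 0.05 on the log2 scale (SE), with an adjusted p of 0.000196, which is under the fold minimum. In Clrn1-/-Clrn2-/- mice the difference was 0.13 ± 0.05 with an adjusted p of 0.0589, and in Clrn1-/- mice it was 0.08.

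Atf3 (chr1:191170296-191218039, minus strand) encodes a stress-induced transcription factor that acts downstream of ATF4 and also responds to nerve injury. It stood at 7.47, 6.25 and 8.35 CPM in wild-type, 11.3, 10.1 and 9.45 in Clrn1-/-, 18.6, 22.8 and 19.1 in Clrn2-/- and 29.9, 28.1 and 29.9 in Clrn1-/-Clrn2-/- mice. The 4 genotypes did not overlap and followed each other in this order. Against wild-type, Atf3 rose 2.73-fold in Clrn2-/- (log2 1.45 ± 0.10, adjusted p 6.28e-07) and 3.98-fold in Clrn1-/-Clrn2-/- mice (log2 1.99 ± 0.10, adjusted p 1.22e-09). In Clrn1-/- mice it was 1.39-fold higher with an adjusted p of 0.00408, which is not called.

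Ddit3 encodes CHOP, a C/EBP family protein tied to prolonged stress of the endoplasmic reticulum. Its level was 14.9, 15 and 15.5 CPM in wild-type, 13, 12.9 and 13.6 in Clrn1-/-, 21.9, 20.5 and 19.6 in Clrn2-/- and 19.1, 19.4 and 20.1 in Clrn1-/-Clrn2-/- mice. The 2 genotypes without clarin-2 lay above wild-type and Clrn1-/- below it, with no overlap, yet no difference from wild-type reached 1.5-fold: log2 0.45 ± 0.06 in Clrn2-/-, 0.37 ± 0.06 in Clrn1-/-Clrn2-/- and -0.21 ± 0.06 in Clrn1-/- mice, with adjusted p of 0.000152, 0.000174 and 0.0221. Of the counts at Ddit3, 24.2% were on the opposite strand. With unstranded counts the 1.5-fold difference between the single mutants, given further on, was lost.

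Trib3 (chr2:152337422-152344032, minus strand) encodes a pseudokinase that ATF4 and CHOP induce and that dampens ATF4 in return. It had 1.40, 1.48 and 1.64 CPM in wild-type, 1.11, 1.27 and 1.45 in Clrn1-/-, 2.26, 2.14 and 2.19 in Clrn2-/- and 1.80, 1.72 and 1.83 in Clrn1-/-Clrn2-/- mice. All Clrn2-/- libraries were above the rest. The difference from wild-type, log2 0.54 ± 0.15 with an adjusted p of 0.0249, was just under the fold minimum, which it passed without wild-type replicate 3 (0.61). Clrn1-/- and wild-type libraries overlapped.

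Cebpb (chr2:167688915-167690418, plus strand) encodes C/EBP beta, a partner of ATF4 that also acts in inflammation. It was the gene of the 32 that fell in Clrn2-/- mice. Its level was 27.2, 26.4 and 25.5 CPM in wild-type, 18.2, 24.2 and 17.6 in Clrn1-/-, 18.7, 16.4 and 14 in Clrn2-/- and 37.7, 36.4 and 33.4 in Clrn1-/-Clrn2-/- mice. Each single mutant lay below wild-type and the double mutants above it, without overlap. The log2 fold change was -0.69 ± 0.11 in Clrn2-/- mice (adjusted p 0.000664), where the call was lost without Clrn2-/- replicate 3 (-0.58), and -0.39 and 0.44 in Clrn1-/- and Clrn1-/-Clrn2-/- mice, which were not called.

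The other 4 genes of this kind were called against wild-type in no mutant. Atf5, a relative of Atf4 with the same kind of translational control, had a log2 fold change of 0.13, 0.50 and 0.38 in Clrn1-/-, Clrn2-/- and Clrn1-/-Clrn2-/- mice, and Cebpg, the C/EBP gamma partner of ATF4, 0.11, 0.29 and 0.19. Nupr1, a small chromatin protein of the stress response, had 0.14, 0.00 and 0.52, with 45.1 to 46.8 CPM in Clrn1-/-Clrn2-/- mice above the 29.0 to 36.9 CPM of all other libraries. Ppp1r15a, whose product GADD34 brings phosphatase back to eIF2, had 0.14, 0.07 and 0.20.

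**Figure D3:**
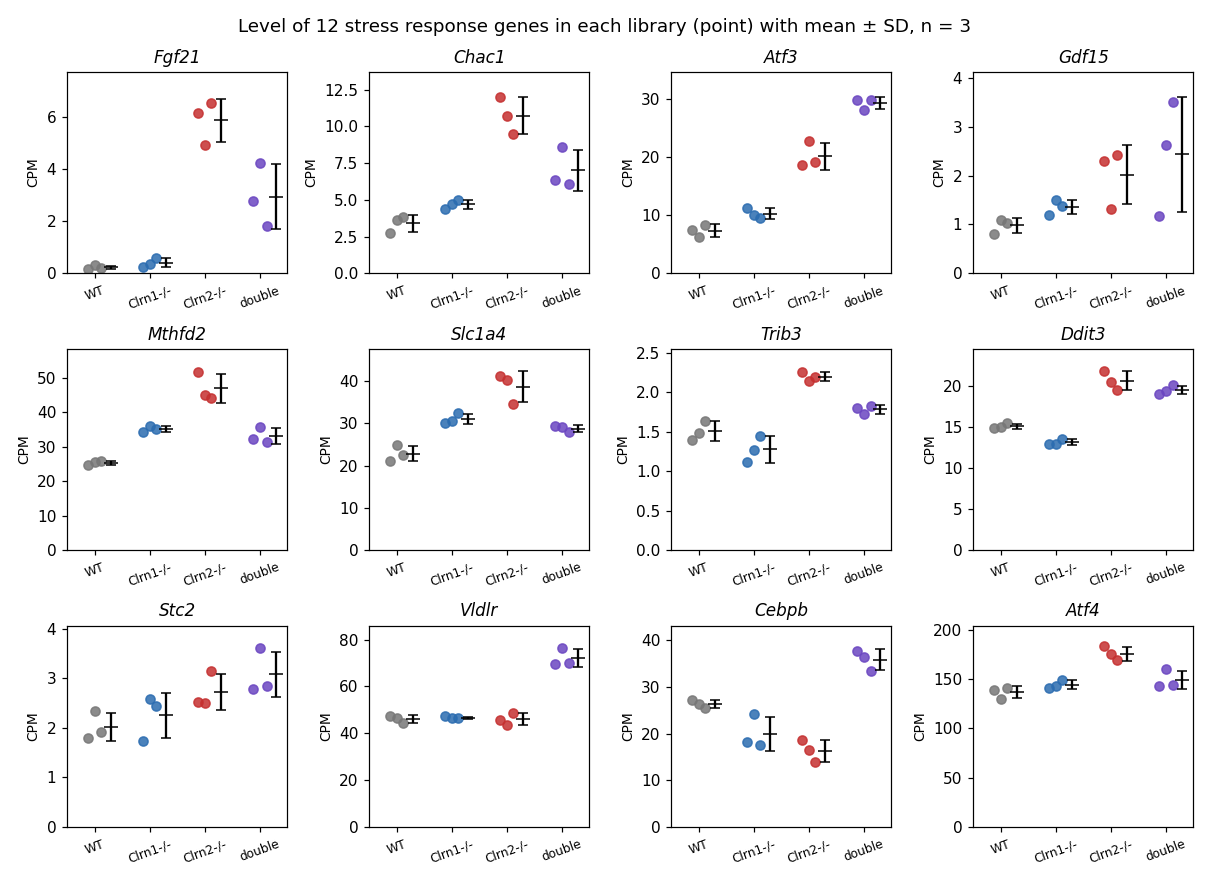
Level in CPM (y axis, from 0) of 12 integrated stress response genes in each library, by genotype (x axis; WT is wild-type and double is Clrn1-/-Clrn2-/-), with mean ± SD of 3 libraries. Atf3 climbs from 6.25 to 8.35 CPM in wild-type to 28.1 to 29.9 in the double mutants, whereas Chac1, Mthfd2 and Slc1a4 are highest in Clrn2-/- mice.

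Among the enzymes of amino acid and one-carbon metabolism, Chac1 (chr2:119351229-119354381, plus strand), which breaks down glutathione, moved most. It had 2.75, 3.64 and 3.85 CPM in wild-type, 4.40, 4.73 and 5.01 in Clrn1-/-, 12, 10.7 and 9.47 in Clrn2-/- and 6.33, 8.59 and 6.08 in Clrn1-/-Clrn2-/- mice. Clrn2-/- libraries were the highest, those of the double mutants came next, and no 2 genotypes overlapped. Chac1 rose 3.13-fold in Clrn2-/- (log2 1.65 ± 0.15, adjusted p 4.38e-06) and 2.04-fold in Clrn1-/-Clrn2-/- mice (log2 1.03 ± 0.15, adjusted p 5.86e-05), with 1.38-fold in Clrn1-/- mice (adjusted p 0.0379, not called).

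Mthfd2 (chr6:83305691-83325908, minus strand) encodes an enzyme of the mitochondrial folate cycle. Its level was 24.6, 25.5 and 25.7 CPM in wild-type, 34.3, 36.0 and 35.0 in Clrn1-/-, 51.7, 45.0 and 44.0 in Clrn2-/- and 32.1, 35.8 and 31.3 in Clrn1-/-Clrn2-/- mice. All mutant libraries were above wild-type and all Clrn2-/- libraries above those of the other mutants, while Clrn1-/- and the double mutants overlapped. It rose 1.86-fold in Clrn2-/- mice (log2 0.89 ± 0.07, adjusted p 6.28e-07) and was 1.39-fold and 1.31-fold higher in Clrn1-/- and Clrn1-/-Clrn2-/- mice, under the fold minimum.

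The other 8 enzymes were called against wild-type in no mutant. Asns (chr6:7675169-7693254, minus strand), a classical ATF4 target, came closest. It had 77.2, 76.2 and 84.8 CPM in wild-type, 85.3, 85.6 and 87.7 in Clrn1-/-, 132, 115 and 110 in Clrn2-/- and 78.5, 96.1 and 84.0 in Clrn1-/-Clrn2-/- mice. The Clrn2-/- libraries stood clear of all others. Their log2 fold change against wild-type was 0.5834 ± 0.07 with an adjusted p of 8.21e-05, where 0.585 is the minimum, and 6 of the alternatives placed Asns past it.

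The serine synthesis genes Phgdh and Psph differed from wild-type by a similar amount in each mutant. Phgdh, the first step, had a log2 fold change of 0.45, 0.36 and 0.36 in Clrn1-/-, Clrn2-/- and Clrn1-/-Clrn2-/- mice and Psph, the last, 0.45, 0.50 and 0.42. No library of any mutant overlapped with wild-type for either gene, but 34.7% of the counts at Psph were on the opposite strand. Psat1, the step between them, had -0.06, 0.17 and 0.12, with 86.2 to 114 CPM in the mutants and 88.8 to 105 CPM in wild-type libraries, which overlapped. Shmt2, which feeds serine into the mitochondrial folate cycle, had -0.06, 0.27 and -0.03, and its Clrn2-/- libraries (36.3 to 37.0 CPM) lay above all others (27.3 to 32.4 CPM). Aldh1l2, of the same cycle, had 0.26, 0.39 and 0.33, Pck2, mitochondrial phosphoenolpyruvate carboxykinase, 0.17, 0.11 and 0.05, and Cth, which makes cysteine, 0.04, 0.09 and -0.29.

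Of the 7 amino acid transporters, 1 was called. Slc1a4 (chr11:20302180-20332713, minus strand) carries serine, alanine and other neutral amino acids. It had 21.2, 24.8 and 22.6 CPM in wild-type, 30.1, 30.7 and 32.5 in Clrn1-/-, 41.3, 40.2 and 34.5 in Clrn2-/- and 29.3, 29.1 and 27.9 in Clrn1-/-Clrn2-/- mice. As for Mthfd2, Clrn2-/- libraries were highest and every mutant library was above wild-type. It rose 1.69-fold in Clrn2-/- mice (log2 0.76 ± 0.07, adjusted p 6.41e-06), and was 1.36-fold and 1.26-fold higher in Clrn1-/- and Clrn1-/-Clrn2-/- mice, which was not called.

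Slc7a11, the cystine importer that held 2 copies of the core, showed no such order. Its libraries ran from 63.5 to 117 CPM in wild-type and from 75.7 to 103 CPM in the mutants, and its log2 fold changes were -0.04, 0.02 and -0.12. Slc3a2, the heavy chain, had -0.02, 0.04 and 0.00, and Slc7a5 0.17, 0.28 and 0.13. The cationic transporter Slc7a1 had 0.25, 0.34 and 0.11, and its relative Slc7a3 -0.02, -0.21 and -0.11 at 0.735 to 1.45 CPM. Slc6a9, the glial glycine transporter GlyT1, had -0.37, -0.33 and -0.35 and was lower at adjusted p in Clrn1-/- (0.0349) and Clrn1-/-Clrn2-/- mice (0.0373), with libraries that overlapped with wild-type in each mutant. The median log2 fold change of the 7 transporters was -0.02, 0.04 and 0.00.

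Both growth brakes were below the fold minimum. Ddit4, a target of ATF4 and of glucocorticoids, had a log2 fold change of -0.15, 0.10 and 0.16 in Clrn1-/-, Clrn2-/- and Clrn1-/-Clrn2-/- mice, with libraries of Clrn1-/- mice spread from 107 to 140 CPM. Sesn2, a leucine sensor upstream of mTORC1, had 0.19, 0.46 and 0.34, and its libraries of Clrn2-/- (16.0 to 18.1 CPM) and Clrn1-/-Clrn2-/- mice (15.4 to 15.8 CPM) lay above wild-type (11 to 13.1 CPM).

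The secreted factors and the receptor formed the group with the largest share called, 2 of 4 in Clrn2-/- and 4 of 4 in Clrn1-/-Clrn2-/- mice. Of all genes, 2.66% and 9.9% were called. In Clrn2-/- mice the regulators and the enzymes also had 2 calls each. Fgf21 (chr7:45613886-45615490, minus strand), a hormone released on starvation and mitochondrial stress, was close to the detection limit in wild-type mice with 6, 11 and 8 counts. The level was 0.169, 0.301 and 0.202 CPM there, 0.253, 0.362 and 0.597 in Clrn1-/-, 6.16, 4.93 and 6.52 in Clrn2-/- and 2.79, 4.25 and 1.80 in Clrn1-/-Clrn2-/- mice. Wild-type and Clrn1-/- libraries overlapped, and the Clrn2-/- and Clrn1-/-Clrn2-/- libraries stood apart from both and from each other. Fgf21 rose 25.8-fold in Clrn2-/- (log2 4.69 ± 0.35, adjusted p 6.28e-07) and 12.9-fold in Clrn1-/-Clrn2-/- mice (log2 3.69 ± 0.37, adjusted p 1.24e-06), the largest changes of the 32 genes in both. The log2 fold change of 0.87 ± 0.50 in Clrn1-/- mice was not called.

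Skeletal muscle is a tissue that can release Fgf21. Its 9 markers summed to 2.59 to 4.69 CPM over all libraries, with 3.37 to 4.69 CPM in wild-type and 3.51 to 4.62 CPM in Clrn2-/- mice, which overlapped, and 0 of the 8 tested were called in Clrn2-/- mice. In Clrn1-/-Clrn2-/- mice the sum was 2.59 to 3.93 CPM, and 1 of the 8 fell. The part of muscle in the rise of Fgf21 was not tested.

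Gdf15 (chr8:70629393-70632456, minus strand), another hormone of cell stress, was low and scattered. It had 0.815, 1.1 and 1.04 CPM in wild-type, 1.20, 1.50 and 1.38 in Clrn1-/-, 2.31, 1.32 and 2.42 in Clrn2-/- and 1.18, 2.62 and 3.51 in Clrn1-/-Clrn2-/- mice. Every mutant library was above wild-type, and the mutants overlapped with each other. It rose 2.05-fold in Clrn2-/- (log2 1.04 ± 0.33, adjusted p 0.0448) and 2.50-fold in Clrn1-/-Clrn2-/- mice (log2 1.32 ± 0.32, adjusted p 0.00393). In Clrn2-/- mice the call did not hold with limma-voom (adjusted p 0.0901), nor without wild-type replicate 1, 2 or 3 or Clrn2-/- replicate 1 or 3, with adjusted p of 0.0654 to 0.148.

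Stc2 (chr11:31357307-31370074, minus strand), a secreted glycoprotein induced by stress of the endoplasmic reticulum, had 1.80, 2.33 and 1.92 CPM in wild-type, 1.74, 2.59 and 2.44 in Clrn1-/-, 2.53, 2.51 and 3.15 in Clrn2-/- and 2.79, 3.6 and 2.84 in Clrn1-/-Clrn2-/- mice. The libraries of both genotypes without clarin-2 were above wild-type. The 1.52-fold rise in Clrn1-/-Clrn2-/- mice (log2 0.61 ± 0.18, adjusted p 0.0129) was the 1 call, close to the fold minimum, and it was lost without wild-type replicate 1 or 3 or Clrn1-/-Clrn2-/- replicate 2, with log2 fold changes of 0.53, 0.56 and 0.47.

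Vldlr (chr19:27216484-27254231, plus strand), a lipoprotein and reelin receptor that ATF4 can induce, followed another pattern. It had 47.5, 46.3 and 44.2 CPM in wild-type, 47.2, 46.5 and 46.4 in Clrn1-/-, 45.8, 43.7 and 48.6 in Clrn2-/- and 69.7, 76.5 and 69.9 in Clrn1-/-Clrn2-/- mice. Libraries of wild-type and both single mutants overlapped, and all double mutant libraries were above them. Vldlr rose 1.57-fold in Clrn1-/-Clrn2-/- mice (log2 0.65 ± 0.05, adjusted p 8.99e-08), against log2 0.02 and 0.00 in Clrn1-/- and Clrn2-/- mice.

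The single mutants were then compared directly. Between Clrn1-/- and Clrn2-/- mice 5 of the 32 genes differed, where 4.73% of all genes did, and all 5 were lower in Clrn1-/- mice (2.34% of all genes were lower and 2.4% higher): Fgf21 (log2 -3.82 ± 0.31, adjusted p 5.63e-07), Chac1 (-1.18 ± 0.14, 3.48e-05), Atf3 (-0.97 ± 0.10, 7.01e-06), Trib3 (-0.78 ± 0.15, 0.0025) and Ddit3 (-0.65 ± 0.06, 2.39e-06). Libraries of Clrn1-/- mice lay wholly below those of Clrn2-/- mice for 14 genes and wholly above for 1, Nupr1, against 17.3% of all genes in each direction. By adjusted p alone 14 genes were lower and 0 higher, where 8.99% and 9.51% of all genes were. Among them was Atf4 with a log2 difference of -0.29 ± 0.05 and an adjusted p of 0.00104.

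Clrn1-/-Clrn2-/- mice differed from Clrn1-/- mice in 5 of the 32 genes, where 7.23% of all genes did (4.62% higher and 2.61% lower). All 5 were higher in the double mutants, namely Fgf21 (log2 2.82 ± 0.33), Atf3 (1.51 ± 0.10), Gdf15 (0.85 ± 0.31), Cebpb (0.84 ± 0.11) and Vldlr (0.63 ± 0.05), with adjusted p between 3.6e-08 for Atf3 and 0.0466 for Gdf15. Libraries lay wholly above those of Clrn1-/- mice for 13 genes and wholly below for 4, against 23.6% and 22.3% of all genes. By adjusted p alone 12 genes were higher and 0 lower, where 15.7% and 14.6% of all genes were. Gdf15 libraries of these genotypes overlapped, and its call did not hold with limma-voom, without any single Clrn1-/- library or without Clrn1-/-Clrn2-/- replicate 2 or 3. That of Vldlr did not hold without Clrn1-/-Clrn2-/- replicate 2.

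From Clrn2-/- mice the double mutants differed in 4 genes, where 5.1% of all genes did. Cebpb (log2 1.13 ± 0.11, adjusted p 3.31e-06) and Vldlr (0.64 ± 0.05, 5.2e-07) were higher in the double mutants, where 3.67% of all genes were, and Fgf21 (-1.0 ± 0.24, 0.00558) and Chac1 (-0.61 ± 0.14, 0.00371) were lower, where 1.43% were. The call of Chac1 did not hold without Clrn2-/- replicate 1 or Clrn1-/-Clrn2-/- replicate 1 or 3. Double mutant libraries lay wholly below those of Clrn2-/- mice for 12 genes, among them Atf4, Asns, Shmt2, Mthfd2, Slc7a1 and Slc1a4, and wholly above for 5 (Atf3, Cebpb, Nupr1, Ppp1r15a and Vldlr), against 20.8% and 21.6% of all genes. By adjusted p alone 8 genes were lower and 4 higher in the double mutants, where 13.2% and 14.4% of all genes were.

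The interaction of the 2 genotypes tested whether losing clarin-2 had another effect without clarin-1 than with it. It was called for 6 of the 32 genes, where 5.5% of all genes were called (3.58% positive and 1.92% negative). The effect of Clrn2 loss was smaller in mice without clarin-1 for Fgf21 (difference of log2 fold changes -1.87 ± 0.56, adjusted p 0.0299), Chac1 (-1.08 ± 0.21, 0.00225), Mthfd2 (-0.98 ± 0.09, 5.49e-06) and Slc1a4 (-0.87 ± 0.10, 3.52e-05). For Mthfd2 and Slc1a4, the log2 fold change on Clrn2 loss was 0.89 and 0.76 with clarin-1 present and -0.09 and -0.11 without it. The difference was positive for Cebpb (1.53 ± 0.16, adjusted p 1.19e-05), which went from -0.69 with clarin-1 to 0.84 without it, and for Vldlr (0.62 ± 0.07, 3.73e-05), which went from 0.00 to 0.63. Without the fold minimum it was positive for 3 genes and negative for 11, where 9.32% and 8.06% of all genes were. The call of Fgf21 did not hold with limma-voom or without wild-type replicate 1 or 3 or Clrn1-/- replicate 3, and that of Vldlr not without wild-type replicate 1, Clrn2-/- replicate 2 or Clrn1-/-Clrn2-/- replicate 2. Asns, with -0.58 ± 0.10 and an adjusted p of 0.00119, fell just short of the fold minimum and passed it in 5 alternatives and with any of 7 libraries left out. Atf3 was not among the genes called: its log2 fold change on Clrn2 loss was 1.45 with clarin-1 and 1.51 without it, and the difference was 0.07 ± 0.14.

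Since Clrn2-/- against wild-type and Clrn1-/-Clrn2-/- against Clrn1-/- mice share no library, the effect of Clrn2 loss was set side by side in both. It was above 0 for 29 of the 32 genes with clarin-1 and for 22 without it, with the same sign in 65.6% of the 32 genes and 57.4% of all genes. Median log2 fold changes were 0.35 and 0.07. Of the 7 genes called with clarin-1 and the 5 called without it, 3 were called in the same direction, Atf3, Gdf15 and Fgf21. Over all genes, 507 and 1378 were called, and 128 in the same direction. Pearson's r across the 32 genes was 0.78 and Spearman's rho 0.25, against 0.149 and 0.19 over all genes. These values describe genes measured in the same libraries, and Fgf21 lay far from the rest of the 32 genes in both comparisons (4.69 and 2.82). The effect of Clrn1 loss, set side by side in the same way, was above 0 for 22 genes in Clrn1-/- against wild-type mice. In Clrn1-/-Clrn2-/- against Clrn2-/- mice it was above 0 for 9. The sign was the same in 40.6% of the 32 genes and 60.3% of all genes. Since 0 of the 32 genes were called in Clrn1-/- against wild-type mice, none could be called in both. Calls therefore say nothing on agreement for these genes. Of all genes tested, 1375 and 972 were called, and 309 in the same direction.

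**Figure D4:**
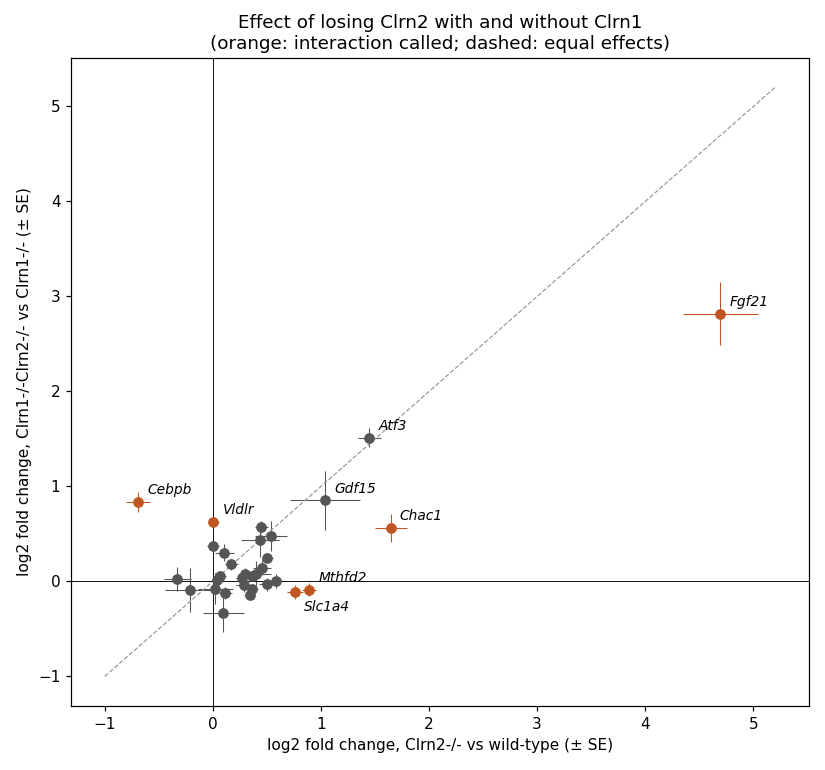
log2 fold change ± SE on loss of Clrn2 in mice with Clrn1 (x axis) and without it (y axis) for the 32 genes, with orange points for a called interaction and a dashed line for equal effects. Atf3 lies on the line at 1.45 and 1.51, Mthfd2 and Slc1a4 lie at -0.09 and -0.11 on the y axis, and Cebpb and Vldlr lie above the line.

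In Clrn1-/-, Clrn2-/- and Clrn1-/-Clrn2-/- mice, 3.52%, 1.24% and 5.88% of all genes rose and 3.7%, 1.42% and 4.02% fell. These shares stand beside the counts of every list below. Upstream of Atf4, the genes for the eIF2 kinases and for what relays stress to them were not called in any comparison with wild-type (0 of 8 in each mutant). At an unadjusted p under 0.05, 1 was higher and 1 lower in each single mutant and 2 were higher and 3 lower in the double mutants. Eif2ak3, which encodes PERK, had a mean of 48.6 CPM in wild-type and 53.3, 54.4 and 58.1 CPM in Clrn1-/-, Clrn2-/- and Clrn1-/-Clrn2-/- mice. The log2 fold changes were 0.13 and 0.16 in the single mutants and 0.26 in the double mutants, with an adjusted p of 0.000983 for the latter. Eif2ak4, which encodes GCN2, Eif2ak1 for HRI and Eif2ak2 for PKR had log2 fold changes between -0.11 and 0.12. Among 14 genes for eIF2, its exchange factor eIF2B and the phosphatase, 0 were called as well, and at an unadjusted p under 0.05 4, 5 and 2 were higher and 4, 1 and 2 lower in Clrn1-/-, Clrn2-/- and Clrn1-/-Clrn2-/- mice. Ppp1r15b, which encodes CReP, the eIF2 phosphatase partner made without stress, had log2 fold changes of 0.26, 0.30 and 0.41, with adjusted p of 0.000547, 0.000389 and 2.89e-06.

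Of 21 genes for cytosolic tRNA charging and export, many of which ATF4 can induce, 0 were called in any mutant. At an unadjusted p under 0.05, 5, 11 and 5 were higher and 2, 0 and 5 lower in Clrn1-/-, Clrn2-/- and Clrn1-/-Clrn2-/- mice. Their median log2 fold change was 0.06, 0.12 and 0.00. Their summed level was 2034 to 2156 CPM in wild-type, 2234 to 2438 CPM in Clrn2-/- and 1995 to 2083 CPM in Clrn1-/-Clrn2-/- mice, so that only Clrn2-/- libraries lay wholly above wild-type, while Clrn1-/- libraries had 2067 to 2173 CPM.

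Among 30 further genes linked to ATF4, 1 rose in Clrn1-/- and 2 in each other mutant, and 0 fell, with medians of 0.08, 0.09 and 0.06. Bbc3, which encodes the death factor PUMA, rose in all 3, from 2.50 CPM in wild-type to 3.97, 4.66 and 4.14 CPM (log2 0.67, 0.90 and 0.73). Pycr1, of proline synthesis, rose in Clrn2-/- mice from 3.01 to 5.45 CPM (log2 0.86, adjusted p 0.000137), and Tnfrsf10b, a death receptor, in Clrn1-/-Clrn2-/- mice from 2.66 to 4.47 CPM (log2 0.75, adjusted p 0.00061). Of 20 further leucine zipper factors, 1, 1 and 4 rose and 0 fell. Fosl2 (log2 0.91), Cebpd (0.62) and Batf3 (0.71) rose in Clrn1-/-Clrn2-/- mice, and Fosl1 was called in all 3 mutants from a wild-type mean of 0.0450 CPM, under the level of 3 counts, to 0.393, 0.398 and 0.68 CPM.

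Chaperones and other genes of the unfolded protein response, which PERK, IRE1 and ATF6 control together, are a neighbouring program. Of 21 such genes, 0, 2 and 5 rose in Clrn1-/-, Clrn2-/- and Clrn1-/-Clrn2-/- mice, and 0 fell, with 0 of 21 lower at an unadjusted p under 0.05 in the last 2 and 4 higher and 3 lower in Clrn1-/- mice. Their median log2 fold change was 0.02, 0.26 and 0.37. Hspa5, the main chaperone BiP, had 432.7 ± 44.1 CPM in wild-type (SD, n = 3), 688.9 ± 88.0 in Clrn2-/- and 758.8 ± 67.1 in Clrn1-/-Clrn2-/- mice, with log2 fold changes of 0.67 (adjusted p 0.000123) and 0.81 (adjusted p 2.73e-06). Sdf2l1 rose by log2 0.91 and 1.0 in the same mutants, and Pdia4, Creld2 and Manf, further proteins of the endoplasmic reticulum, by 0.72, 0.67 and 0.68 in the double mutants. The summed level of the list was 3244 to 3495 CPM in wild-type, 3349 to 3497 CPM in Clrn1-/-, 3943 to 4440 CPM in Clrn2-/- and 4223 to 4677 CPM in Clrn1-/-Clrn2-/- mice, so that the genotypes without clarin-2 lay above both others.

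**Figure D5:**
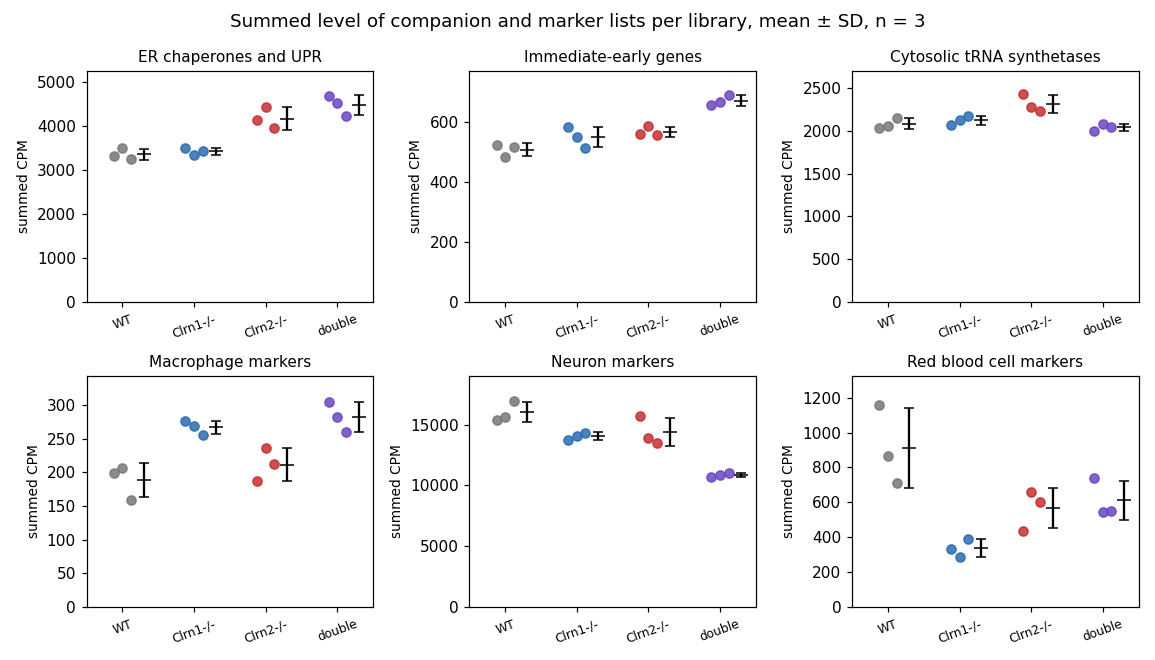
Summed level in CPM (y axis, from 0) of 6 gene lists in each library by genotype (x axis; WT is wild-type and double is Clrn1-/-Clrn2-/-), with mean ± SD of 3 libraries. The chaperone list is higher in both genotypes without clarin-2, and immediate-early genes and macrophage markers are higher and neuron markers lower in the double mutants than in wild-type.

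Immediate-early genes, which respond within minutes to activity, injury or dissection and to which Atf3 is often added, were followed because Atf3 rose. Of 20, 2, 2 and 10 rose and 1, 0 and 0 fell in Clrn1-/-, Clrn2-/- and Clrn1-/-Clrn2-/- mice, with medians of 0.21, 0.09 and 0.57. Of all genes, 3.52%, 1.24% and 5.88% rose and 3.7%, 1.42% and 4.02% fell. Fos had means of 4.52 CPM in wild-type and 10.4, 9.11 and 17.6 CPM in Clrn1-/-, Clrn2-/- and Clrn1-/-Clrn2-/- mice (log2 1.20, 1.02 and 1.97), and Junb and Ier2 rose by 0.91 and 0.59 in the last. Fosb was the other gene that rose in each single mutant (log2 2.76 and 2.08), and Klf2, a factor of endothelial cells under flow, fell in Clrn1-/- mice (-1.01). The summed level was 484.1 to 525.2 CPM in wild-type, 515.9 to 584.3 CPM in Clrn1-/-, 558 to 588.6 CPM in Clrn2-/- and 657.4 to 692 CPM in Clrn1-/-Clrn2-/- mice. The part of these genes in the rise of Atf3 was not tested. Of 12 genes that respond to glucocorticoids, which also act on Ddit4, 0, 0 and 1 rose, the last being Pdk4 (log2 0.70), with 4, 1 and 4 higher at an unadjusted p under 0.05 and 0 lower.

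Markers of other cells also differed between the genotypes. Of 12 macrophage markers, 3, 1 and 8 rose in Clrn1-/-, Clrn2-/- and Clrn1-/-Clrn2-/- mice, with summed levels of 159.8 to 206.9 CPM in wild-type, 256 to 276.1, 186.7 to 236.9 and 260.9 to 305 CPM. Of 19 neuron markers, 0, 1 and 3 rose and 1, 1 and 5 fell, and of 7 red blood cell markers 6, 5 and 2 fell. Supporting cell markers summed to 2218 to 2315 CPM in wild-type, 2433 to 2556 CPM in Clrn1-/- and 3054 to 3076 CPM in Clrn1-/-Clrn2-/- mice. Of these 15 markers, 3 were called over and 0 under in Clrn1-/- mice, and 5 over and 1 under in Clrn1-/-Clrn2-/- mice. In Clrn2-/- mice the summed levels of hair cell (3380 to 3989 CPM), supporting cell (2227 to 2471 CPM), macrophage and neuron markers (13510 to 15680 CPM) overlapped with wild-type, with 4 of 14 hair cell markers called over. Those of fibroblast (6416 to 6866 against 8517 to 10460 CPM), bone (1861 to 1908 against 1993 to 2202 CPM) and red blood cell markers (437.9 to 656.7 against 710 to 1160 CPM) were below it. Of the 12 fibroblast markers, however, 7 had a log2 fold change above 0, 0 rose and 2 fell, with a median of 0.03, whereas 2 of 12 bone markers and 0 of 7 red blood cell markers were above 0, with medians of -0.22 and -0.70. The part of these cells in the differences of the 32 genes was not tested.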

How the data were processed

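Polyadenylated RNA was sequenced as stranded paired reads of 100 bases. The deposited values are counts per gene that the authors obtained with STAR on GRCm38.p6 with Gencode M24, without normalization. Of the counts, 95.2% to 95.6% of the stranded ones were in the orientation of the kit, which were used. The 13.5% to 15.8% not assigned to a gene were left out. In R 4.3.3, edgeR 4.0.16 kept genes by filterByExpr (minimum count 10), scaled libraries by TMM and fitted all 12 with genotype alone. Quasi-likelihood tests were made for each mutant against wild-type, between mutants and for the interaction, with Benjamini-Hochberg adjustment over 19052 genes. The script was tested on simulated data. Alternatives were limma-voom (limma 3.58.1), DESeq2 1.42.0, its size factors, library size alone, no low-count filter, only the groups compared, the replicate block, unstranded counts, no fold minimum, and leaving out every library once.

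The 32 genes, the lists and the rule for naming genes (values per library for genes called in any comparison and for Atf4, Ddit3 and Trib3, the rest by ranges, and up to 3 called genes per further list) were chosen with earlier results of these data known. Asns is given per library and the kinases, Ppp1r15b, Batf3, Creld2, Manf, Fosb and Klf2 are named outside that rule, after their values were seen. Lengths and coordinates came from Gencode M21. Replicates of a genotype differed by 4.14 to 17.4 times the counting variance, so none was a repeat of another. The genotypes use the same replicate numbers, and no source says what a number stands for. Deviations from the group means of libraries with the same number correlated at 0.291, 0.134 and 0.111 for wild-type and Clrn1-/-. These passed 0.1, the value set for treating libraries as paired. For the other genotypes the correlations were -0.279 to 0.306, and not every pair passed 0.1. Libraries with unlike numbers were not compared, so these values do not show that wild-type and Clrn1-/- libraries were paired.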

Additional observations from a re-analysis of the deposited data

Results flagged for a closer look

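The effect of losing clarin-1 differed from that of losing clarin-2, by the direct test between the single mutants (edgeR), for 5 of the 32 genes. The difference of log2 fold changes, Clrn1 loss minus Clrn2 loss, was -3.82 for Fgf21 (adjusted p 5.63e-07), -1.18 for Chac1 (3.48e-05), -0.97 for Atf3 (7.01e-06), -0.78 for Trib3 (0.0025) and -0.65 for Ddit3 (2.39e-06). In each of the 5, all 3 Clrn1-/- libraries lay below all 3 Clrn2-/- libraries. For Ddit3, the libraries of the single mutants lay on opposite sides of wild-type.

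The effect of losing clarin-2 differed between mice without and with clarin-1, by the interaction term, for 6 genes. The difference was -1.87 for Fgf21 (adjusted p 0.0299), -1.08 for Chac1 (0.00225), -0.98 for Mthfd2 (5.49e-06), -0.87 for Slc1a4 (3.52e-05), 1.53 for Cebpb (1.19e-05) and 0.62 for Vldlr (3.73e-05). Cebpb was the 1 gene of the 32 whose log2 fold change on Clrn2 loss was called in opposite directions, -0.69 with clarin-1 and 0.84 without it.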

How the results depend on the processing

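Without the fold minimum, the genes over-expressed were 8, 18 and 17 in Clrn1-/-, Clrn2-/- and Clrn1-/-Clrn2-/- mice, those under-expressed 3, 1 and 1, and those called 14 between the single mutants, 12 against Clrn1-/-, 12 against Clrn2-/- and 14 in the interaction, since calls by adjusted p alone include small differences. With each library left out in turn, the counts over-expressed were 0 to 0, 5 to 7 and 5 to 6 in Clrn1-/-, Clrn2-/- and Clrn1-/-Clrn2-/- mice, those under-expressed 0 to 0, 0 to 1 and 0 to 0, and those called 5 to 5 between the single mutants, 3 to 6 against Clrn1-/-, 3 to 5 against Clrn2-/- and 4 to 8 in the interaction. The lowest, 3 against Clrn1-/- mice, came without Clrn1-/-Clrn2-/- replicate 2, where Gdf15 and Vldlr were lost, and Cebpb was lost in Clrn2-/- mice without Clrn2-/- replicate 3. In the interaction, the call of Fgf21 did not hold with limma-voom, wild-type replicate 1 or 3 left out or Clrn1-/- replicate 3 left out, and that of Vldlr without wild-type replicate 1, Clrn2-/- replicate 2 or Clrn1-/-Clrn2-/- replicate 2. Chac1 was lost between the double mutants and Clrn2-/- mice without Clrn2-/- replicate 1 or Clrn1-/-Clrn2-/- replicate 1 or 3. Asns was gained in the interaction with DESeq2, its size factors, library size alone, no filter, unstranded counts, and without wild-type replicate 3, any Clrn1-/- library, Clrn2-/- replicate 2 or 3, or Clrn1-/-Clrn2-/- replicate 2. The near-zero log2 fold change of Vldlr, with a library left out, ran from -0.0066 (without wild-type replicate 3) to 0.0498 in Clrn1-/- mice, and from -0.0288 (without Clrn2-/- replicate 3; -0.0245 without wild-type replicate 3) to 0.0408 in Clrn2-/- mice. The cause was not tested. All other counts stayed within 1.5 times. The replicate block gave 0, 6 and 6 genes over-expressed, 0, 1 and 0 under-expressed, and 5, 5, 4 and 6 called between mutants and in the interaction, and changed no call, nor did it in a fit of wild-type and Clrn1-/- alone, which was added after seeing the data. Within the 250 bases before the start alone, 8 of 28 genes (28.6%) held the motif core, against 3.91% of all genes. Slc1a4, whose core began at -4 and ran past the start, and Trib3, whose core lay after it, dropped out.

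The minimum of 1.5-fold was a chosen threshold, and smaller differences could pass adjusted p alone, as that of Atf4 did in Clrn2-/- mice. Small differences that did not pass it and genes near 3 counts are where depth and 3 libraries per genotype limit these data.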
